A study of Homo sapiens with 2 samples.

Results

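The genes described here encode the translation initiation factors (eIFs) and elongation factors (eEFs) of human cells, and were chosen by name: protein-coding genes whose symbol is EIF or EEF followed by a number, without the EIF2AK kinases. The rule gave 67 of the 20162 protein-coding genes outside the mitochondrial genome. It uses no measured value, and it also takes in 13 genes that were not counted as factor subunits here: eIF4E binding proteins, a kinase and methyltransferases that modify elongation factors, a relative of eIF1A and 2 readthrough genes. Binding of LSD1 (KDM1A), the demethylase of mono- and dimethylated histone H3 lysine 4, was profiled by chromatin immunoprecipitation and sequencing in PC-3M-luc cells, a metastatic, luciferase-marked derivative of the human prostate cancer line PC-3. The series holds 1 LSD1 library, made with an Abcam antibody, and 1 input DNA library. Both came from cells labelled with the genotype Control at passages 17 to 20, with no treatment named in the labels. The deposited list of 20110 peaks was taken as LSD1 called against that input, so spread between replicates could not be measured, and no test across genes was made.

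Translation starts when eIF2 brings the initiator tRNA to the small ribosomal subunit, where eIF1, eIF1A, eIF3 and eIF5 hold it ready for scanning. The eIF4 proteins bind the cap of the mRNA and unwind its leader, and eIF5B joins the large subunit. In elongation eEF1A delivers aminoacyl-tRNAs, the eEF1B subunits reload it with GTP, and eEF2 moves the ribosome along. Several of these genes, like those of the ribosomal proteins, make TOP mRNAs, which begin with a C and a run of pyrimidines and whose translation follows mTOR signalling.

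The start sites of 6 genes known for TOP mRNAs are shown because they are the starts over which the peaks described below lie. Each line runs from 40 bases before the canonical transcription start site (TSS) to 20 bases from the TSS on, in hg19. Capitals mark a C within 5 bases of the TSS and the pyrimidines that follow it without a break, where there are at least 5. EEF1G and EIF4B have shorter runs and no capitals. The further genes of this list, EEF1D, EIF3E and EIF3H, are given by name only.
EEF1A1, chr6:74230736-74230795, minus strand: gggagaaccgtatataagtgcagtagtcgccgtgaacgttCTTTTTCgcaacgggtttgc
EEF1B2, chr2:207024579-207024638, plus strand: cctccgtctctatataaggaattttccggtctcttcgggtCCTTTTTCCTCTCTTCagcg
EEF1G, chr11:62341344-62341403, minus strand: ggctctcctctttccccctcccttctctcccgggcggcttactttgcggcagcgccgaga
EEF2, chr19:3985442-3985501, minus strand: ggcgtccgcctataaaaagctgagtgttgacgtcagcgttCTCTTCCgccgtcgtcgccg
EIF3F, chr11:8008844-8008903, plus strand: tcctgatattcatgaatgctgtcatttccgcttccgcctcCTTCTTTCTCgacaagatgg
EIF4B, chr12:53400200-53400259, plus strand: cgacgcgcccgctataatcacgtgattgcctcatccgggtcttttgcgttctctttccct

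LSD1 peaks lay at the promoters of most translation factor genes. A peak overlapped the 1 kb on either side of the canonical TSS at 58 of the 67 genes (86.6%, exact 95% binomial interval 76 to 93.7), against 55% of all protein-coding genes. Intervals here cover counting error only. These 58 genes lay under 56 distinct peaks, because each readthrough gene shares its peak with the member it starts from. In all 58 the TSS base itself was under a peak, so none was counted through a peak that only grazed the window (53.6% of all protein-coding genes had their TSS base under a peak). Counted at the outer end of the gene record in place of the canonical TSS, 56 of 67 had a peak (52.8% of all protein-coding genes). Weak binding below the calling threshold would not appear in the list.

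The peaks were also high in score. Each peak carries a score given by the authors, never below 50, which is used here for description and ranking alone. The median of the highest promoter peak was 805.56 over the 58 genes (interval of the median 590.21 to 902.95) and 464.66 over all 11088 genes with a promoter peak. Of the 58, 43 (74.1%) exceeded 464.66. A total of 13 genes (22.4%) stood at or above percentile 90 of the promoter peak scores of all genes, and 5 (8.62%) stood below percentile 25. EIF4G2 had the highest score, 3181.53. EIF1, EIF4A1, EIF5 and EEF1A1 each had exactly 3100, a value that 206 peaks of the list share and that does not rank them. A score of 3100 or more was found at 5 of the 67 genes (7.46%), against 1.15% of all protein-coding genes.

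**Figure D1:**
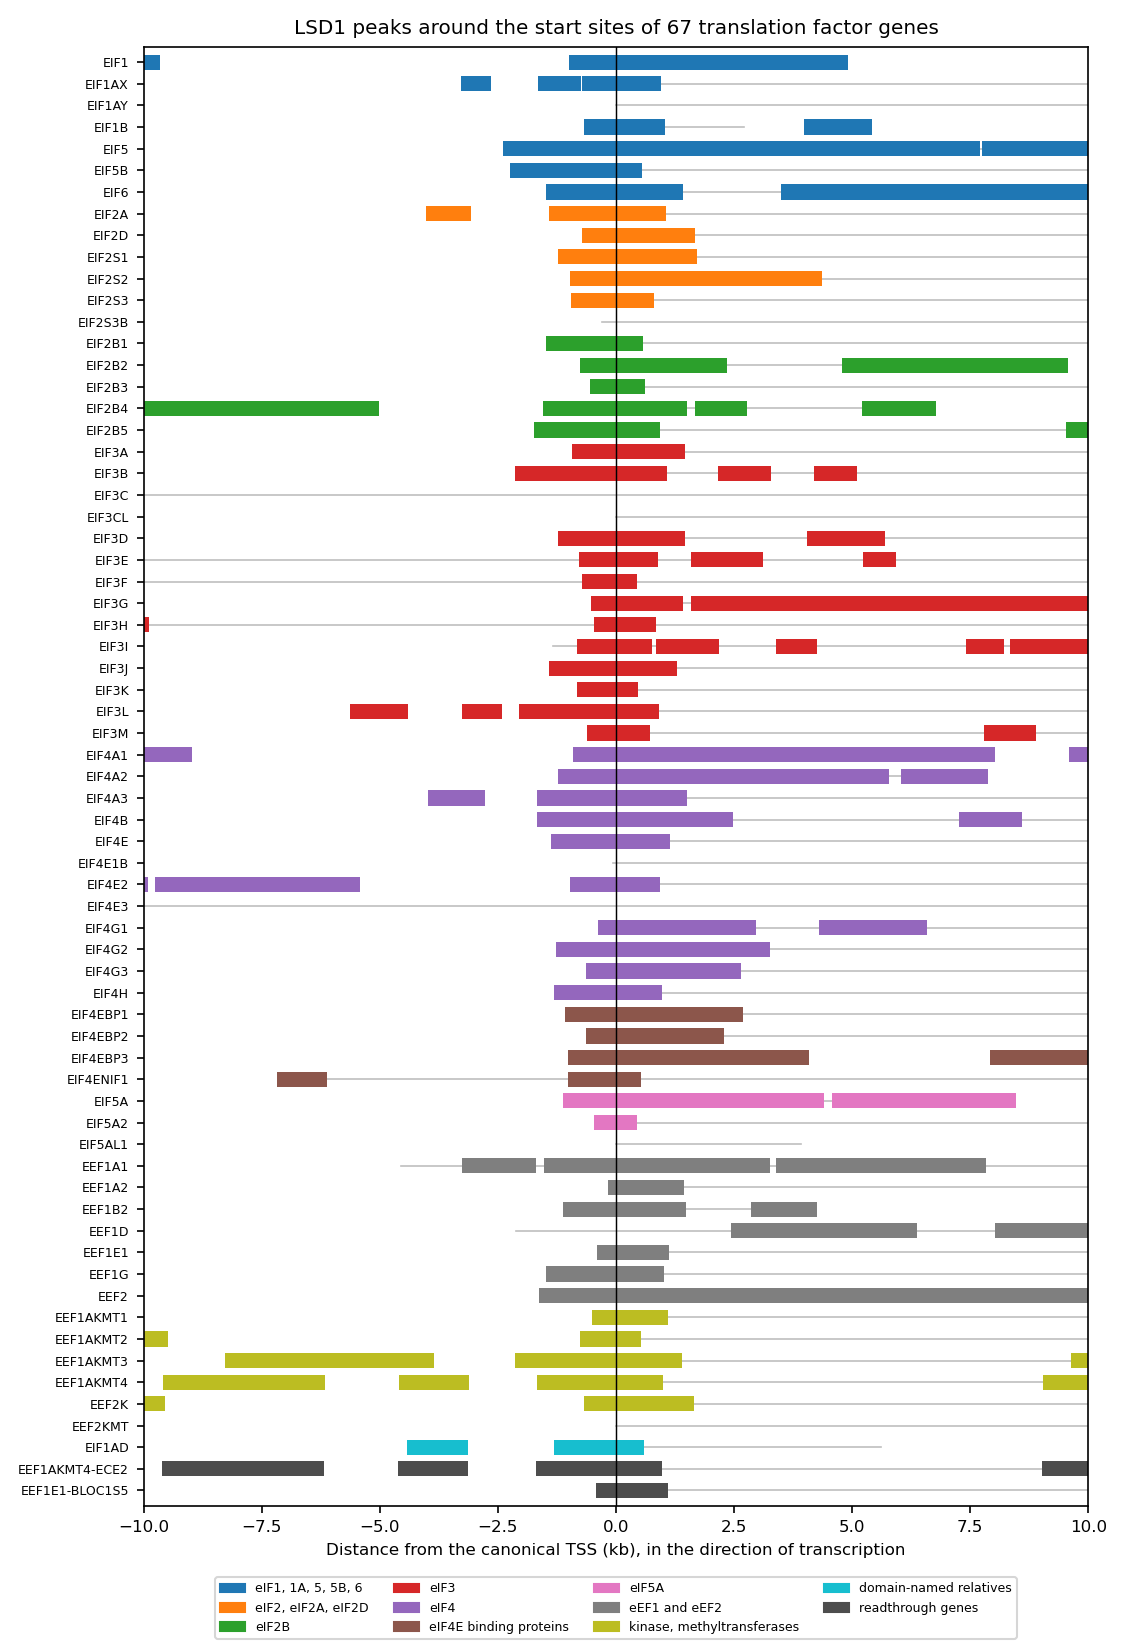
LSD1 peaks (bars) within 10 kb of the canonical TSS of each of the 67 genes, coloured by role, with the gene record as a grey line; the x axis is distance from the TSS in kb in the direction of transcription. Bars cross the TSS at 58 genes, and at EEF2, EIF5, EIF4A1, EIF4A2 and EIF5A they run over the gene body.

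The factors that scan for the start codon and join the subunits carried peaks at 6 of 7 genes. EIF1 encodes the factor that keeps scanning accurate. Its peak, chromosome 17, 39844139 to 39850054, was 5916 bp wide and covered 100% of the gene. EIF5 encodes the GTPase-activating protein for eIF2. Its promoter peak was 10081 bp wide (chromosome 14, 103798191 to 103808271), a second peak of score 1641.29 followed after it, and together they covered 99.6% of the gene. The peaks of EIF5B, the subunit-joining GTPase (866.34), and EIF6, which keeps the large subunit free (767.29), stood above the all-gene median of 464.66. EIF1B (473.83), a close relative of EIF1, was near that median and EIF1AX (389.26) below it. The remaining gene was EIF1AY on chromosome Y, where the whole list has 1 peak. That peak was 1582506 bp away from the EIF1AY TSS.

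Among the carriers of the initiator tRNA 5 of 6 genes had a promoter peak, and the 3 subunits of eIF2 differed in score. EIF2S2 (beta) had 1176.9 under a peak of 5331 bp, EIF2S1 (alpha, the subunit phosphorylated in stress) had 406.48, and EIF2S3 (gamma, the GTP-binding subunit) had 309.7. EIF2A and EIF2D, which encode other proteins that can bring tRNA to the small subunit, had 752.6 and 505.55. No eIF2B gene lacked a peak. These 5 genes encode the guanine nucleotide exchange factor that recharges eIF2, and their scores ran from 475.76 at EIF2B2 through 648.05 at EIF2B3, 922.55 at EIF2B1 and 1160.1 at EIF2B4 to 1446.82 at EIF2B5, all above the all-gene median.

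EIF2S3B, the member of this group without a peak, is a copy of EIF2S3 on another chromosome, and their start regions are shown because nearly the same letters had a peak at one and none at the other. Each line runs from 60 bases before the TSS to 30 bases from it on, and capitals mark the 3 positions at which the pair differs.
EIF2S3, chrX:24073013-24073102, plus strand: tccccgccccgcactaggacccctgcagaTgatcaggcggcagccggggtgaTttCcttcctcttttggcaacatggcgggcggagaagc
EIF2S3B, chr12:10658429-10658518, plus strand: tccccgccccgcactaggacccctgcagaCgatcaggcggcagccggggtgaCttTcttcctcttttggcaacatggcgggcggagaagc
Over the 300 bases from 250 before to 50 from the TSS on, 282 letters (94%) were the same. The peak of EIF2S3 spanned 1774 bp and scored 309.7, while the nearest peak to the EIF2S3B TSS was 106678 bp away. In the 1000 bases centred on the TSS, GC content was 57.7% at EIF2S3 and 45.8% at EIF2S3B. The share of words of 32 bases found a single time in the genome, over 1 kb on either side, was 97.8% at EIF2S3 and 79.5% at EIF2S3B.

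The eIF3 complex, the large scaffold on the small subunit, had a promoter peak at 12 of its 14 genes, with scores from 62.06 to 1979.16 and a median of 805.56. EIF3J, a loosely bound subunit, led with 1979.16, followed by EIF3L (1388.68). The scores of EIF3A (799.99), EIF3B (902.95) and EIF3D (849.31, a subunit that can itself bind the cap) lay close together, as did those of EIF3M (897.36) and EIF3E (811.13). EIF3I had 520.72, EIF3G 414.56 and EIF3K 315.92. EIF3H (138.54) and EIF3F (62.06) were among the lowest of all members, and the EIF3F peak lies close to the authors' minimum of 50. EIF3C and EIF3CL, a duplicated pair on chromosome 16 whose 300 promoter bases were identical, had none within 101460 bp and 78093 bp of their TSS. Only 2.34% of the 32-base words around either TSS were found a single time in the genome, so most short reads from the 2 copies cannot be told apart. The handling of such reads is not given in the sources used here, and its part in the missing peaks was not tested.

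The eIF4 genes had the highest median score of the roles. Of 12 genes 10 had a promoter peak, all 10 above the all-gene median, and their own median was 1572.94. EIF4G2 encodes a relative of the eIF4G scaffold that lacks the eIF4E binding site. Its peak was 4526 bp wide (chromosome 11, 10827207 to 10831732). EIF4A1, the main cap-dependent RNA helicase, lay whole under a peak of 8936 bp (chromosome 17, 7475242 to 7484177), which also reached the TSS of CD68, 6813 bp downstream. Its paralog EIF4A2 had 2437.89 over 7004 bp, and EIF4A3, the helicase of the exon junction complex, had 1321.34 over 3174 bp. EIF4B, a helicase cofactor, had 2202.9, and EIF4H, which acts likewise, 622.49. The scaffold genes EIF4G1 and EIF4G3 had 1824.55 and 528.64. The cap-binding protein gene EIF4E had 886.01 and EIF4E2, whose product competes for the cap, 593.03. EIF4E3 had no peak within 140263 bp of its TSS. EIF4E1B, an oocyte-expressed relative, had no promoter peak either, and the peak at its far end (791.37) lay at the start of TSPAN17.

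The genes of the eIF4E binding proteins all had promoter peaks, with scores of 1646.33 at EIF4EBP1, 717.3 at EIF4EBP3, 331.16 at EIF4EBP2 and 119.98 at EIF4ENIF1, the importer of eIF4E into the nucleus. The EIF4EBP1 peak, at the gene of an mTOR-controlled repressor that binds eIF4E, was 3777 bp wide. EIF5A encodes the hypusine-bearing factor that helps the ribosome past stalling sequences. It lay under a peak of 5521 bp (1627.62), which was followed by a second peak of 3900 bp (1753.41) that reached the start of GPS2. Its paralog EIF5A2 had the lowest score of all members, 53.27 over 918 bp. EIF5AL1, an intronless relative, had none within 129029 bp, with 21.8% of its 32-base words found a single time.

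In elongation 6 of 7 genes had a promoter peak, with EEF1E1 counted among them by its name. EEF1A1 was covered by 2 nearly adjoining peaks of score 3100, of 4787 bp over the TSS and 4454 bp downstream and a further one of 407.83 upstream of the TSS. They covered 29.8% of the gene record, which extends far past the usual transcript, and 97.8% of the canonical transcript. EEF1A2, the muscle and neuron paralog, had 124.1 over 1609 bp. EEF2 lay whole under the widest promoter peak of the members, 12079 bp (chromosome 19, 3975012 to 3987090), with a score of 1734.32. The exchange factor genes EEF1G and EEF1B2 had 899.44 and 590.21, and EEF1E1, which encodes a scaffold of the tRNA synthetase complex, 345.06. EEF1D, the remaining exchange factor subunit, had no peak at the canonical TSS. The nearest began 2437 bp downstream of it, and that peak (138.52) and a 13445 bp peak (278.53) reaching past the gene end covered 68.7% of the gene. It was the only member gained when the window was widened to 5 kb or any annotated TSS was allowed, which gave 59 of 67.

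Of the enzymes that modify the elongation factors, 5 of 6 had a promoter peak: EEF1AKMT3 (1571.37), EEF1AKMT4 (1148.41), EEF1AKMT1 (482.65), EEF1AKMT2 (462.23) and EEF2K (277.51), the kinase that inactivates eEF2. EEF2KMT, which methylates eEF2, had none within 24335 bp, and 50.4% of the words around its TSS were found a single time. EIF1AD had 848.98. The readthrough genes EEF1AKMT4-ECE2 and EEF1E1-BLOC1S5 have the peaks of EEF1AKMT4 and EEF1E1.

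**Figure D2:**
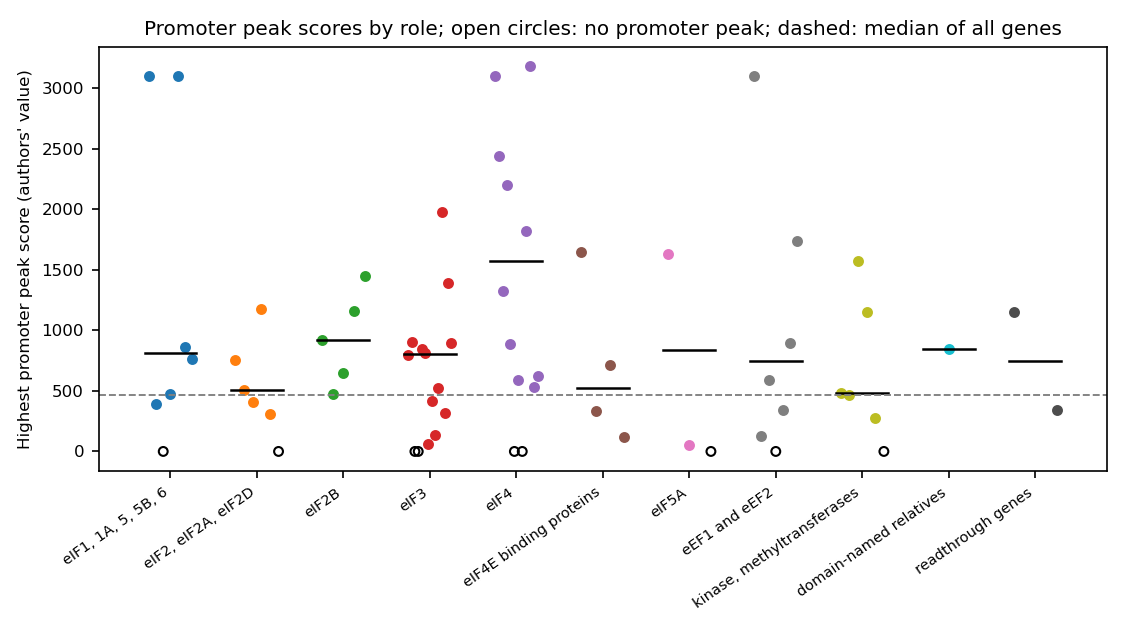
Score of the highest promoter peak (y axis, the authors' value, linear) for each of the 67 genes (points) by role (x axis); black bars are medians of the genes with a peak, open circles at 0 are the 9 genes without one, and the dashed line is the median of all protein-coding genes with a promoter peak, 464.66. All 10 eIF4 genes with a peak and all 5 eIF2B genes sit above the line.

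Paralogs of 1 factor differed widely in score. The pairs EIF4A1 and EIF4A2 (3100 and 2437.89) were both high, whereas EEF1A1 and EEF1A2 stood at 3100 and 124.1, EIF5A and EIF5A2 at 1627.62 and 53.27, and EIF1 and EIF1B at 3100 and 473.83. In each of these pairs, EIF4A1 and EIF4A2 included, both promoters were CpG-rich. EEF1A2 had the highest GC content of all members around its TSS, 77.6%, against 60.1% at EEF1A1.

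The length under peaks near the TSS was larger downstream than upstream. Over the 58 genes with a promoter peak the mean length under peaks within 5 kb was 1324.45 bp upstream of the TSS (SD 844.4 over genes) and 2091.98 bp downstream (SD 1493.67). Over all genes with a promoter peak it was 1263.79 and 1474.42 bp. More length lay downstream than upstream at 36 of the 58 genes (62.1%), against 57.9% of all genes, and the midpoint of the promoter peak was downstream of the TSS at 33 (56.9%), against 58.1%. The promoter peak reached a median of 1015 bp upstream (866 bp over all genes) and 1210.5 bp downstream (1002 bp). In these counts and medians the members' sides differed about as those of all genes did. The promoter peak ran more than 3 kb downstream of the TSS at 10 of the 58 genes (17.2%; 6.85% of all genes) and more than 3 kb upstream at none (4.27% of all genes), with 2383 bp at EIF5 the furthest. At 4 kb downstream 22.4% of the 67 genes were under a peak against 6.53% of all protein-coding genes, and at 4 kb upstream 7.46% against 5.06%, positions picked after the profile was seen.

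**Figure D3:**
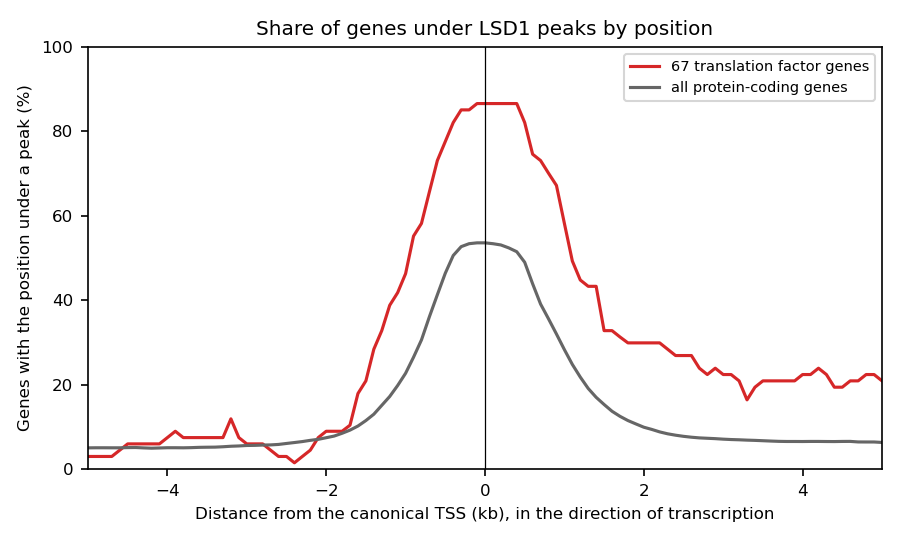
Share of genes whose position lies under an LSD1 peak (y axis, %) by distance from the canonical TSS (x axis, kb), for the 67 translation factor genes (red) and all protein-coding genes (grey). The red line is at 86.6% at the TSS and at 20.9% at 5 kb downstream, where the grey line is at 6.31%.

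A median of 9.02% of the gene body lay under peaks (interval of the median 3.72 to 17), against 1.28% over all protein-coding genes. Counted from 1 kb past the TSS the median was 4.27% against 0%, and keeping just the upper-scoring peaks, from the list's median of 205.87 up, 5.05% against 0%. Many of all protein-coding genes had no promoter peak, which lowers their medians. With a promoter peak required, the median share of the whole body was 85.2% against 46.2% for genes up to 10 kb long. For those over 10 kb it was 5.79% against 3.43%. At least 50% of the body was covered at 14 of the 67 genes (20.9%), against 6.49% of all protein-coding genes. Coverage of 100% was found at EEF2, EIF1, EIF4A1 and EIF4EBP3, followed by EIF5 (99.6%), EIF3G (96.9%), EIF5A (96.8%) and EIF4A2 (96.1%). The others were EIF2B2 (74.3%), EEF1D (68.7%), EIF6 (66%), EIF4G1 (64.2%), EEF1B2 (58.9%) and EIF2B4 (56.4%). Peaks in the promoter window gave most of the covered bases at 8 of the 14, and other peaks gave most at EEF1D, EIF2B2, EIF2B4, EIF3G, EIF4G1 and EIF6. A 12622 bp peak of score 3100 over the EIF3G body also reached the start sites of PPAN and P2RY11, and an 8233 bp peak of 2361.82 lay over the 3′ part of EIF6 and the start of MMP24OS.

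Coverage went with gene length. Of the 15 members up to 10 kb long 11 had at least 50% of the body under peaks (73.3%), against 19.8% of all genes of that length. Among genes of that length with a promoter peak it was 11 of 14 (78.6%) against 47.3%. For genes over 10 kb with a promoter peak it was 2 of 44 (4.55%) against 2.91%. The median gene length was 22467 bp for the members and 27220 bp for all protein-coding genes.

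**Figure D4:**
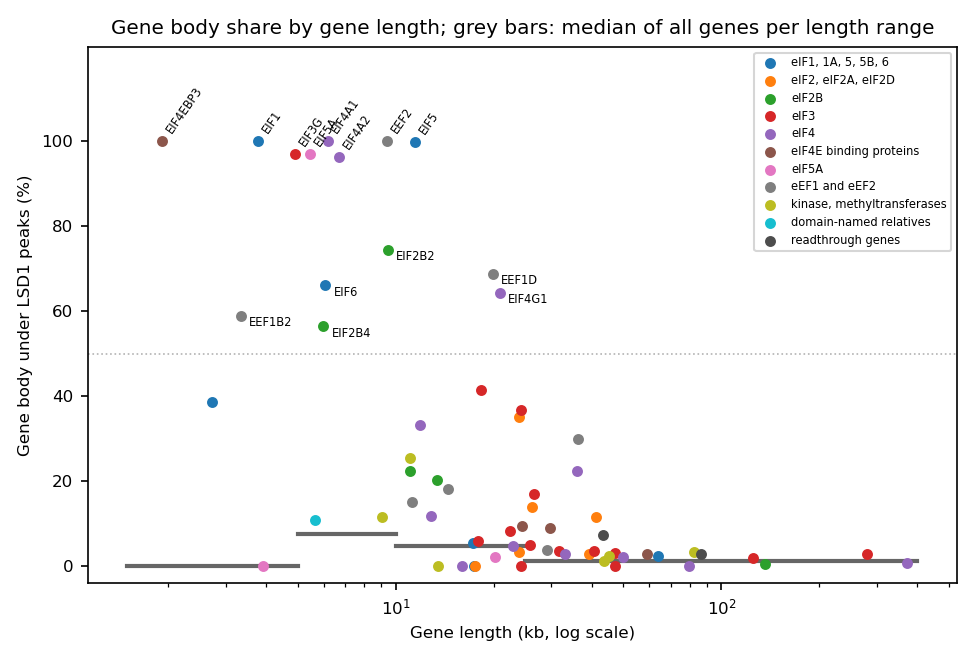
Share of the gene body under LSD1 peaks (y axis, %) by gene length (x axis, kb, log scale) for the 67 genes (points, coloured by role); grey bars are the medians of all protein-coding genes up to 5 kb, from 5 to 10 kb, from 10 to 25 kb and over 25 kb, and the dotted line is 50%. The 14 genes above the line are named, and all but EEF1D and EIF4G1 are no longer than EIF5 (11482 bp).

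Beyond the promoter peaks, 35 members held 58 further overlaps of their gene body with a peak, from 57 distinct peaks. At least 2 peaks lay over 34 of the 67 genes (50.7%), against 23.6% of all protein-coding genes, many of which had no promoter peak. Among genes with a promoter peak the gap was smaller. It was 57.1% against 37.1% for genes up to 10 kb long, and 56.8% against 40.1% for those over 10 kb. The further peaks were lower, with a median score of 181 and a range from 50.63 to 3100. Of the 58, 14 had the TSS of another coding gene within 1 kb, such as TSFM at the end of EEF1AKMT3 (1031.36), and 21 ran past the 3′ end of the member. The same counts and scores over all protein-coding genes are not given here, so they are not read as a trait of the members. Gene records with most peaks were EIF3E, EIF3I and EIF4B. Outside the promoter window those of EIF3I scored from 58.91 to 524.96. The EIF3I record is longer than its canonical transcript of 9198 bp, and the 524.96 peak began 17561 bp from the TSS, past that transcript's end. Those of EIF4B scored from 61.2 to 149.15, and the last mostly lies beyond the EIF4B end, at TNS2. At 7 members a peak elsewhere in the gene record scored higher than the promoter peak: EIF3G, EIF6, EIF5A, EIF3I, EIF3H, EEF1A2 and EEF1E1-BLOC1S5. Except at EIF3I and EEF1A2, the higher peak had the TSS of another coding gene within 1 kb. That gene was UTP23 at EIF3H (389.03) and BLOC1S5 at EEF1E1-BLOC1S5 (387.74). The share of all protein-coding genes with such a higher peak was not counted.

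The start of another coding gene lay under the promoter peak at about the share found over all genes: 17 of the 58 (29.3%), against 24.4% of all genes with a promoter peak, and 14 of 56 (25%) without the readthrough genes. At 11 (19%, against 15.7%; 10 of 56 without the readthrough genes) the other gene ran the opposite way from a start less than 1 kb upstream. These head-to-head partners were TMEM234 at EIF3I (54 bp away), TIGD1 at EIF4E2 (132 bp), GTF2H3 at EIF2B1 (143 bp), SNX17 at EIF2B4 (278 bp), SERP1 at EIF2A (291 bp), BANF1 at EIF1AD (346 bp), NDUFS1 at EEF1B2 (451 bp), METTL1 at EEF1AKMT3 (509 bp), ATP6V1D at EIF2S1 (524 bp) and ALG3 at EEF1AKMT4 (710 bp) and its readthrough gene. A peak at such a pair cannot be assigned to either gene.

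The members' promoters were more often CpG-rich than those of all genes. CpG-rich here means a GC content over 55% and a ratio of observed to expected CpG over 0.65 in the 1000 bases centred on the TSS. This held for 56 of the 67 genes (83.6%) and for 56% of all protein-coding genes. Among CpG-rich promoters 50 of 56 members (89.3%) had a peak, against 76.9% of all such genes. Among the CpG-poor it was 8 of 11 (72.7%, interval 39 to 94), against 27.1%. The CpG-poor members without a peak were EIF1AY, EIF2S3B and EIF5AL1, which are relatives of other members. The 6 CpG-rich members without a peak were EEF1D, EEF2KMT, EIF3C, EIF3CL, EIF4E1B and EIF4E3.

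Promoters of the 5 genes at a score of 3100 or more are shown because their peaks were the highest. Each runs from 150 bases before the TSS to the TSS base in hg19. Capitals mark exact matches on either strand to CCAAT (NF-Y), GGGCGG (SP/KLF), TGACGT (the core of the cAMP response element), CCGGAAG (ETS), CACGTG (E-box) or TATAAA.
EIF4G2, chr11:10830473-10830623, minus strand: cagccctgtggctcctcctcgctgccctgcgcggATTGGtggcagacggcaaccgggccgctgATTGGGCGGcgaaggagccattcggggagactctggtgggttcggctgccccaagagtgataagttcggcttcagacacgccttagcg
EEF1A1, chr6:74230755-74230905, minus strand: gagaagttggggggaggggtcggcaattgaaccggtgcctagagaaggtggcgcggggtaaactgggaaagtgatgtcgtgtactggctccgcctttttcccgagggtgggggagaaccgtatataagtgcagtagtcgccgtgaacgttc
EIF1, chr17:39844987-39845137, plus strand: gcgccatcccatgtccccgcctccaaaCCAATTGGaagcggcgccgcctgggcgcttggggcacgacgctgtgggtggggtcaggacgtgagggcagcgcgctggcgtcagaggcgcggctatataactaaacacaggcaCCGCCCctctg
EIF4A1, chr17:7475993-7476143, plus strand: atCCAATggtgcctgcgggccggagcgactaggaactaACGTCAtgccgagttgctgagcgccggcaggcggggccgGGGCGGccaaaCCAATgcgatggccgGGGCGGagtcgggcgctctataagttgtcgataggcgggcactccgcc
EIF5, chr14:103800424-103800574, plus strand: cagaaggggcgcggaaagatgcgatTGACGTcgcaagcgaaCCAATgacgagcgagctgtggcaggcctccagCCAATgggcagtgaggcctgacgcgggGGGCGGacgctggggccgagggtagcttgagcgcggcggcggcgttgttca
EEF1A1 holds none of these letters in the bases shown, and EIF4G2, EIF1, EIF4A1 and EIF5 hold CCAAT and GGGCGG, on one strand or the other. EIF4A1 and EIF5 hold TGACGT as well. How often promoters of other genes hold CCAAT and GGGCGG together was not counted, and the share of each over all promoters is given next.

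Motif shares were counted on both strands in the 300 bases from 250 before the TSS to 50 from it on, over 11 motifs, some of which overlap. Each share is given over all 67 members and then over the 58 with a peak, beside the same 2 shares of protein-coding genes. Each readthrough gene starts within 23 bp of its partner, so matches at such a pair are counted at both. CACGTG occurred at 16 of the 67 genes (23.9%, interval 14.3 to 35.9; 8.74% of all) and at 27.6% of those with a peak (10.8% of all with a peak). All 16 had a peak, but so did 58 of all 67 members. How many of all genes with CACGTG had a peak is not given here, so the 16 are not read as a link between letters and peaks. The 16 included EIF4B, EIF4E, EIF4G1 and EIF4H of cap binding and unwinding, and EIF2B3, EIF3A, EIF3F and EIF3K. Their median score was 758.6, and that of the 42 other genes with a peak 830.1. CCGGAAG occurred at 19 genes (28.4%, interval 18 to 40.7; 14% of all) and at 27.6% of those with a peak (21.6%). The 16 with both these letters and a peak had a median score of 556.9, and the 42 other genes with a peak 876.2. The 7 eIF3 genes with these letters were EIF3C, EIF3CL, EIF3G, EIF3H, EIF3I, EIF3L and EIF3M. GGGCGG was found at 55 (82.1%; 60.9% of all) and at 81% of those with a peak (76.7%). CCAAT was found at 27 (40.3%; 35.9%) and at 44.8% of those with a peak (36.6%). The YY1 motif occurred at 4 (5.97%; 1.97%) and at 6.9% of those with a peak (3.43%), namely EIF2B5, EIF3E, EEF1E1 and its readthrough gene. TGACGT, which TGACGTCA contains, occurred at 7 (10.4%; 9.47%) and at 12.1% of those with a peak (12.4%). TGACGTCA itself occurred at EEF2 and EIF3H (2.99%; 2.68%) and at 3.45% of those with a peak (3.74%). TATAAA occurred at 4 (5.97%, interval 1.65 to 14.6), against 9.8% of all genes, and at 6.9% of those with a peak, against 4.71% of all genes with a peak. The interval holds 9.8%, and no direction is read from 4 genes. TGATGNAA, the ATF4 composite element, occurred at EEF1D and EIF2S2 (2.99%; 2.49%) and at 1.72% of those with a peak (1.17%). The palindromes bound by NRF1 (1.69% of all promoters, 2.71% of those with a peak) and by BANP or ZBTB33 (0.625%, 1.04%) were in none of the 67. A match marks letters, not a bound site.

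The pyrimidine run marked at the TOP genes above was found at 24 of the 67 genes (35.8%), against 11.2% of all protein-coding genes and 82.3% of the 79 genes of cytosolic ribosomal proteins. It was at 7 of the 9 listed TOP genes and at 17 of the 58 others, 9 of which encode eIF3 subunits. Members with the run had a promoter peak at 20 of 24 (83.3%) and those without at 38 of 43 (88.4%), with median scores of 776.3 and 857.7. Over all genes the shares were 56.2% and 54.8%. The 9 TOP genes had 8 promoter peaks with scores from 62.06 at EIF3F to 3100 at EEF1A1.

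Of the wider pathway 6 lists were taken, with earlier results of these data known, so their shares do not stand for the whole pathway. All 49 listed genes had a promoter peak, against 55% of all protein-coding genes. CpG-rich promoters made up 79.6% of the 49, and 76.9% of all genes with such promoters had a peak. The 49 had a median score of 725.6 and a median body share of 6.16%. The 6 eIF2 alpha kinases and phosphatase subunits were led by PPP1R15A (GADD34, which directs dephosphorylation of eIF2 alpha), with 2639.41 and 100% of its body covered, and by EIF2AK3 (PERK), with 880.43. Among 12 mTOR and cap regulators AKT1S1, an inhibitor subunit of mTORC1, had 2813.03 and LARP1, the TOP mRNA binder, 1089.18. DDX3X, an RNA helicase, and PABPC1, the main poly(A)-binding protein, led their list with 2745.67 and 2242.58. The release factor genes GSPT2 (1543.89) and GSPT1 (1222.74) led termination and recycling. DHPS, which makes the hypusine of eIF5A, had 2554.97, and DPH5, of diphthamide synthesis on eEF2, 1589.17. SECISBP2, of selenocysteine insertion, and TUFM, the mitochondrial elongation factor, had 2510.72 and 1535.43.

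The genes of cytosolic ribosomal proteins and aminoacyl-tRNA synthetases are the closest in function. Ribosomal protein genes had a promoter peak at 78 of 79 (98.7%), a median score of 1485.94 and a median body share of 77.5%, in genes of 5332 bp at the median. Cytosolic aminoacyl-tRNA synthetase genes had 20 of 20, with 930.66 and 20.1% at a median length of 39925 bp. For the translation factors the 3 values were 86.6%, 805.56 and 9.02%. With 1 library these differences were not tested.

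Pseudogenes derived from these genes are many, and peaks were rare at them as at annotated pseudogenes in general. Of 155 annotated pseudogenes named after members, 49 of them copies of EEF1A1, 1 (0.645%) overlapped a peak, against 2.17% of all annotated pseudogenes. It was EEF1A1P23, inside ATP13A4 on chromosome 3, where a peak of 1254 bp (193310413 to 193311666, score 363.46) lay at its end. A count of 1 does not set these pseudogenes apart from others. How far short reads from such copies can be told apart was not examined.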

How the data were processed

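LSD1 ChIP and input DNA were sequenced, 1 library each, and mapped to hg19 with bowtie 2, per the labels' protocols. The submitters' processing notes name MACS 1.41, Bowtie2 and the builds hg19 and mm10. Caller settings, duplicate handling and read depth are not given in the sources used here. Depth per peak is therefore unknown. The deposited list gives position and a score per peak. The score was read from its values as the caller's -10 × log10 p, which no label states, and served only to rank, filter and describe.

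All 24 chromosome names occur in GRCh37 and 0 peaks run past a chromosome end. Genes and canonical (Ensembl) start sites came from GENCODE 44 mapped to GRCh37, and coordinates are 1-based. A promoter peak overlaps 1 kb on either side of the canonical TSS by at least 1 base. Gene body share is the part of the gene record under peaks. Intervals are exact 95% binomial for shares and from binomial ranks for medians. Peak calls and motif search were tested on simulated data, and 200 of 200 planted peaks and 100 of 100 planted motifs were recovered.

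Members, lists and tests were chosen with earlier results of these data known. Values are given for the 12 members with the highest and the 4 with the lowest promoter peak score, the 5 with the highest body share, all without a peak, the main subunits of each role, and the 2 highest-scoring genes of each pathway list. Alternatives were other score limits, no peaks of the widest 1%, other windows, start sites and overlap criteria, the span of the canonical transcript and a longer motif window. The scripts ran under Python 3.11.15 with scipy 1.17.1, pandas 2.3.3, numpy 2.4.6, numba 0.67.0, pysam 0.24.0 and matplotlib 3.10.9.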

Additional observations from a re-analysis of the deposited data

How the results depend on the processing

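No paired analysis was possible because LSD1 and input were sequenced as 1 library each. Under the alternatives tried, 39 recomputed summary values were classed as unchanged and 2 were not. Shares and medians were held to the interval of the reported value. Counts had only to be less than 1.5 times apart, which is looser than their interval. The mean lengths under peaks are among the 39, and no interval is given for them above. The 2 came from the motif window from 500 before to 100 after the TSS, which has more bases. There CCAAT rose to 58.2% (52.7% of all promoters) and TATAAA to 14.9% (18.8%). The count of members with a promoter peak lay between 47 and 59 of 67 in the settings with all members. The 47 came from requiring the peak midpoint within 1 kb (49.5% of all protein-coding genes), where the genes lost were EEF2, EIF1, EIF2S2, EIF4A1, EIF4A2, EIF4EBP3, EIF4G1, EIF4G2, EIF4G3, EIF5 and EIF5A, whose TSS lay under wide peaks. A score of at least 100 lost EIF3F and EIF5A2, and the median score of the list also EEF1A2, EIF3H and EIF4ENIF1. Without the widest 1% of peaks EEF2, EIF4A1 and EIF5 were lost. With factor subunits only, EEF1E1 counted among them by its name, 46 of 54 had a peak. Without counts of reads, depth limits what the absence of a peak can show.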

Other observations

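Members that host small nucleolar RNA genes (snoRNAs, guides of rRNA modification) on their own strand had more of the gene body under peaks, a grouping made after the values were seen. The 9 hosts had a median body share of 64.2%, and 6 of them (66.7%) had at least 50%, while the 58 other members had a median of 6.68%, with 8 at 50% or more (13.8%). Over all protein-coding genes the medians were 1.99% in 424 hosts and 1.25% in the others, and 10.6% of hosts and 6.4% of the others had at least 50%. Of 17 annotated snoRNA genes in members 10 (58.8%) lay under a peak, against 94 of 497 (18.9%) in all protein-coding hosts: SNORD37 in EEF2, SNORA48 and SNORD10 in EIF4A1, all 5 in EIF4A2, SNORD66 in EIF4G1 and SNORA28 in EIF5. Those in EEF1B2, EIF1AX, EIF3A and EIF4G2 did not. Except for SNORD66, the snoRNA genes under peaks lay in hosts with at least 96.1% of the body covered. The snoRNA count therefore largely restates the body shares of the hosts, and the 5 in EIF4A2 lay under the same peak. The part of gene length in these differences was not tested.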
